A study of Mus musculus with 2 samples.

Results

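The 10 microRNA genes described here are those of the Mir200 family (Mir200a, Mir200b, Mir429, Mir200c and Mir141), the Mir183 cluster (Mir183, Mir96 and Mir182) and the single genes Mir203 and Mir205, all known from epithelial tissues. The rule that picks them lists their symbols and sets no threshold on values, and all 10 were found among the 1973 microRNA genes of the count tables. The samples are livers of B6NCrl mice, with no treatment in the labels, at postnatal day 0, 1 liver from each of 2 pups of the same pregnant female, and the sex of the pups was not collected. Small RNA below 30 bases was sequenced from total RNA, with 1 library per pup, called replicate 1 (pup 1) and replicate 2 (pup 2). The data form 1 group with no second tissue, age or treatment.

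MicroRNAs are cut from hairpin transcripts and lower the output of messenger RNAs that pair with the seed, bases 2 to 8 of the mature strand. The Mir200 family is known for holding cells in an epithelial state by repressing Zeb1 and Zeb2, the transcription factors that switch off E-cadherin, and in the liver it is known chiefly from the epithelium of the bile ducts rather than from hepatocytes. The Mir183 cluster is best known from sensory cells of the eye and ear, Mir203 from the differentiating layers of the skin, where it represses p63, and Mir205 from squamous and basal epithelial cells.

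The mature sequences are shown because the seeds divide the 10 genes into groups that the chromosomal clusters do not follow. Each line gives the arm that is generally the more abundant one, 5′ to 3′, from RefSeq (GRCm38.p6), with the seed in capitals. All 10 genes had a mature sequence there.
miR-200b-3p: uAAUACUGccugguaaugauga
miR-200c-3p: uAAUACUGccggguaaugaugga
miR-429-3p: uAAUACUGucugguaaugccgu
miR-200a-3p: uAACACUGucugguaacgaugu
miR-141-3p: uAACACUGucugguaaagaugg
miR-183-5p: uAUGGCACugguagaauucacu
miR-96-5p: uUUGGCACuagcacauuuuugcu
miR-182-5p: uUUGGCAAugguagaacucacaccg
miR-203-3p: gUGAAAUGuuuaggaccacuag
miR-205-5p: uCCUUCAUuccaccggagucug

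Counted from base 1 at the 5′ end, miR-200a-3p differed from miR-200b-3p within the seed by the substitution U4C. MiR-200b-3p and miR-200c-3p shared a seed although they lie on different chromosomes, and the same held for miR-200a-3p and miR-141-3p. Within the Mir183 cluster, miR-182-5p differed from miR-96-5p in the seed by C8A and miR-183-5p differed from it by U2A, so each hairpin of that cluster had a seed of its own. MiR-203-3p and miR-205-5p had seeds that no other mature mouse microRNA of the RefSeq table carried. The seed of miR-96-5p was also that of miR-1271-5p, whose gene (listed as Gm24195) had 0 counts in both libraries, which allows up to 0.877 and 0.661 CPM in replicates 1 and 2.

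The 10 hairpins lie at 5 loci of mm10. On chromosome 4, minus strand, Mir200b (chr4:156055681-156055750), Mir200a (chr4:156054896-156054985) and Mir429 (chr4:156053905-156053987) follow each other in the direction of transcription with gaps of 695 and 908 bases. All 3 are in an intron of Ttll10, and Mir429 also overlaps an exon of the noncoding transcript Gm13648. On chromosome 6, minus strand, Mir200c (chr6:124718322-124718390) and Mir141 (chr6:124717914-124717985) are 336 bases apart in an intron of the noncoding gene Gm15884. Mir141 also overlaps an exon of Gm29008 on the same strand. A separate cluster on the same chromosome and strand holds Mir183 (chr6:30169668-30169737), Mir96 (chr6:30169446-30169551) and Mir182 (chr6:30165918-30165992) outside any other gene of GENCODE M21, with 116 bases between the first pair and 3453 bases before Mir182. Mir203 (chr12:112130880-112130955, plus strand) overlaps no other gene of GENCODE M21, though RefSeq has a hairpin on the other strand there, and Mir205 (chr1:193507463-193507530, minus strand) is in an exon of the long noncoding RNA 4631405K08Rik.

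Replicate 1 held 3422622 reads on the gene strand of a microRNA and replicate 2 held 4538427. Levels are counts per 1000000 of these reads (CPM), given as the mean ± SD over n = 2 pups. With n = 2, the smallest two-sided p of an exact sign-flip permutation test is 0.5, so none is given for levels. Intervals are exact at 95% and cover counting error only, as PCR copies of a molecule are counted as separate reads. In these bulk livers, fewer cells of a type and less RNA per cell cannot be told apart. The hepatocyte microRNA Mir122 took 34.2% and 35.5% of the counts. Reads that mapped to several loci, 25.2% and 24.7% of all reads, are on no gene. The longest stretch that a member shared with another hairpin was 17 bases, between Mir200a and Mir141, apart from Mir203, which is matched over 60 bases by a hairpin on the opposite strand of its own locus.

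All 10 genes were detected in both pups, with 134 to 19966 counts per library. Together they made up 0.931% of the microRNA counts in replicate 1 (interval 0.921% to 0.941%) and 0.907% in replicate 2 (0.898% to 0.916%). Their levels spanned 119.7-fold, from Mir429 down to Mir141. The Mir200b cluster on chromosome 4 was the highest locus at 6450.1 ± 138.7 CPM. It was followed by the Mir183 cluster at 1375 ± 43.1 CPM, Mir203 at 975 ± 83.3 CPM, the Mir200c cluster at 297 ± 5.46 CPM and Mir205 at 91.7 ± 2.07 CPM. No pair of these loci overlapped in the values of the pups.

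The Mir200b cluster led the other Mir200 locus by a wide margin. It stood at 6548 CPM in replicate 1 and 6352 CPM in replicate 2, against 293 and 301 CPM for the Mir200c cluster, a ratio of 21.7 ± 0.867. Its level was 4.69 ± 0.248 times that of the Mir183 cluster, 6.63 ± 0.424 times that of Mir203 and 70.3 ± 3.10 times that of Mir205. The clusters on chromosome 6 differed from each other as well, with the Mir183 cluster 4.63 ± 0.0601 times the Mir200c cluster. Of the single loci, Mir203 was 10.6 ± 1.15 times Mir205. Each of these ratios lay above 1 in both pups by many times its SD. They compare read counts summed over the hairpins of a locus, 3, 2 or 1 in number, so they depend in part on that number. Mir182, the highest hairpin of the Mir183 cluster, had 660 CPM, below Mir203 at 975 CPM. The counts are not scaled to hairpin length, since each read stands for a mature strand of nearly the same length. How evenly different mature sequences were captured as reads was not tested, and the SD over the pups does not cover it. The ratios are therefore ratios of reads, not of molecules.

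**Figure D1:**
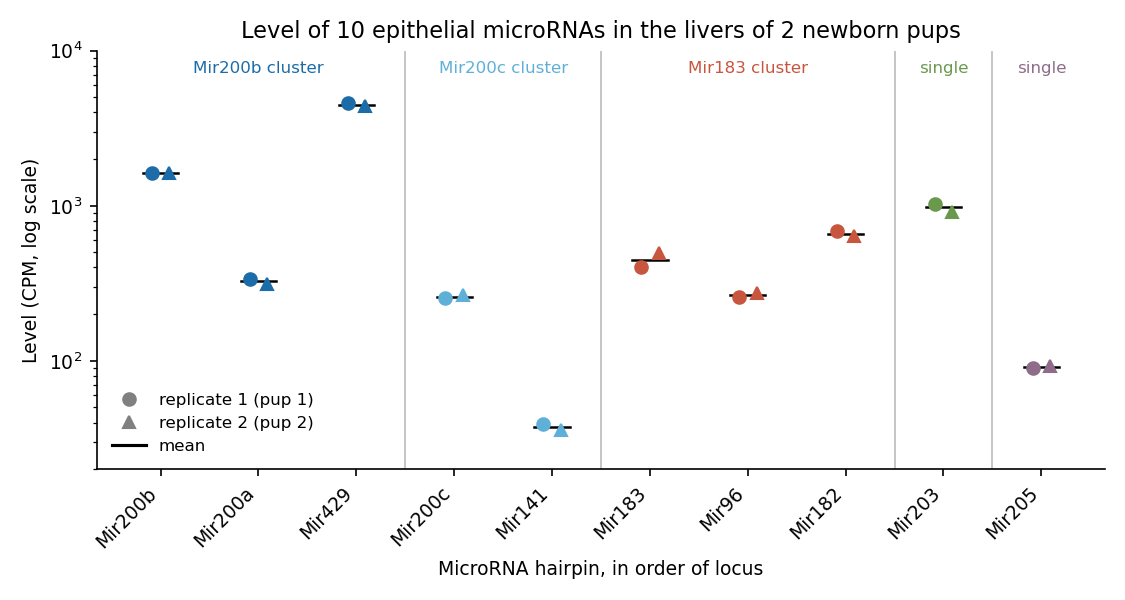
The level of each of the 10 hairpins (CPM, log axis) in replicate 1 (circles) and replicate 2 (triangles), with the mean as a bar, in the order of the 5 loci. Mir429 (4491 CPM) was highest and Mir141 (37.5 CPM) lowest. On this log axis the pups lay close together, and they were relatively farthest apart at Mir183 (400.3 CPM in replicate 1 and 496 CPM in replicate 2).

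Within the chromosome 4 cluster, the hairpin farthest along the transcript had the most reads. Mir429 had 15685 counts (4583 CPM) in replicate 1 and 19966 counts (4399 CPM) in replicate 2. Mir200b had 5578 counts (1629.7 CPM) and 7436 counts (1638 CPM). Mir200a had 1149 counts (336 CPM) and 1426 counts (314 CPM). Both pups thus gave the order Mir429, Mir200b, Mir200a, which is not the order of the hairpins along the chromosome. Mir429 took 69.6% ± 0.513 of the cluster's counts, Mir200b 25.3% ± 0.641 and Mir200a 5.04% ± 0.127. Among all 1973 microRNA genes Mir429 ranked 32 by mean level, Mir200b ranked 64 and Mir200a ranked 128.

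The Mir200c cluster was led by the hairpin it is named for. Mir200c had 869 counts (254 CPM) in replicate 1 and 1202 counts (265 CPM) in replicate 2. Mir141 had 134 counts (39.2 CPM, interval 32.8 to 46.4) and 163 counts (35.9 CPM, interval 30.6 to 41.9), which made it the lowest of the 10 genes, at rank 214. Mir200c took 87.3% ± 1.00 of the counts of the pair, and its level was 6.93 ± 0.629 times that of Mir141. In both Mir200 clusters the hairpins with the seed AAUACUG therefore stood above the hairpin with the seed AACACUG.

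Summed by seed, the AAUACUG group (Mir200b, Mir429 and Mir200c) reached 6466 and 6303 CPM in replicates 1 and 2. The AACACUG group (Mir200a and Mir141) reached 375 and 350.1 CPM. The ratio of the groups was 17.6 ± 0.531, and Mir200c gave only 254 and 265 CPM of the first group. The counts cover whole hairpins, so these sums hold reads of both arms, and only the arms printed above carry the seed named.

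Members of the Mir183 cluster were closer to each other in level. Mir182 had 2347 counts (686 CPM) in replicate 1 and 2883 counts (635 CPM) in replicate 2. Mir183 had 1370 counts (400.3 CPM) and 2252 counts (496 CPM). Mir96 had 885 counts (259 CPM) and 1244 counts (274 CPM). Mir182, the hairpin farthest along the transcript, was the highest in both pups and Mir96 the lowest. Mir182 took 48.1% ± 4.10 of the cluster's counts, Mir183 32.5% ± 3.91 and Mir96 19.4% ± 0.191. The Mir183 to Mir96 ratio was 1.68 ± 0.185 per hairpin and 2.54 per base of hairpin, because the annotated Mir96 hairpin is the longest of the 3 at 106 bases.

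**Figure D2:**
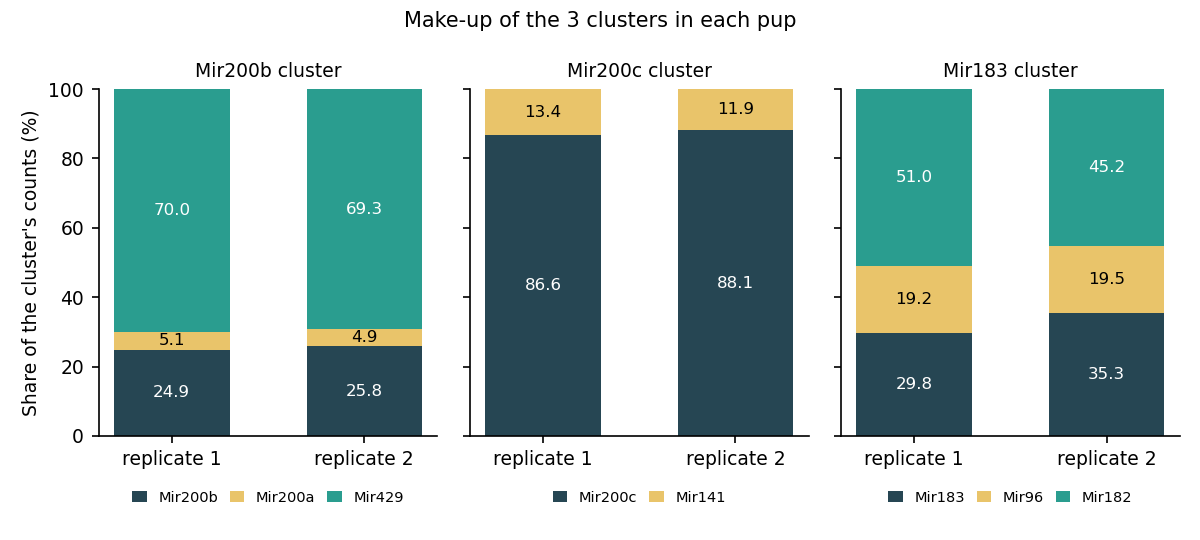
The share of each cluster's counts (%) taken by its hairpins in replicate 1 and replicate 2. Mir429 held 70.0% and 69.3% of the Mir200b cluster, and Mir200c 86.6% and 88.1% of the Mir200c cluster, whereas in the Mir183 cluster the share of Mir183 was 29.8% in replicate 1 and 35.3% in replicate 2.

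Mir203, which restrains growth of skin cells, had 3539 counts (1034 CPM) in replicate 1 and 4158 counts (916 CPM) in replicate 2, and ranked 79. Mir205, which acts with the Mir200 family on Zeb1 and Zeb2 in epithelial cells, had 309 counts (90.3 CPM, interval 80.5 to 100.9) and 423 counts (93.2 CPM, interval 84.5 to 102.5), and ranked 183. In the order of the 10 levels, 8 of 9 neighbouring genes were separated by more than the sum of their SDs, without overlap of the pups. The exception was Mir96 and Mir200c, whose means were 6.96 CPM apart with SDs that add up to 18.7 CPM.

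The genes outside the set with the most similar levels over both libraries, by summed difference of log2(CPM + 1), were of varied kinds. They were Mir15a and Mir30d for Mir429, Mir1247 and Mir340 for Mir200c, Mir29a and Mir494 for Mir182, Mir532 and Mir361 for Mir203, and Mir128-1 and Mir666 for Mir205. Mir15a stood at 4422 ± 0.496 CPM and Mir128-1 at 88.4 ± 5.21 CPM. With 2 libraries this likeness says only that the levels were near each other.

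The pups were then compared gene by gene, with the two-sided exact binomial test against counting error and Benjamini-Hochberg adjustment over all 390 genes whose counts summed to at least 10. All 10 members passed that filter. Mir183 was higher in replicate 2, and Mir203, Mir182 and Mir429 were lower, by small amounts. These 4 calls among 10 stand beside 30.3% of all tested genes. By direction, the 1 higher member stands beside 15.9% of genes and the 3 lower members beside 14.4%. Calls depend on depth: among genes whose counts summed to at least 1000, 56.5% were called, against 4 of the 8 members with that many. The share of members called was near the background of well counted genes.

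Mir183 had a log2 ratio of 0.31 (interval 0.21 to 0.41, adjusted p = 2.2e-09 by the exact binomial test), with values of 400.3 and 496 CPM. Mir203 had a log2 ratio of -0.17 (interval -0.24 to -0.11, adjusted p = 9.5e-07 by the same exact test). Mir182 had -0.11 (interval -0.19 to -0.03, adjusted exact p = 0.022) and Mir429 had -0.06 (interval -0.09 to -0.03, adjusted exact p = 0.00065). When Mir122 was left out of the library size, the calls of Mir182 (log2 ratio -0.08, adjusted exact p = 0.12) and Mir429 (-0.03, adjusted exact p = 0.13) were lost.

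The other 6 members were not called. Mir200b had the smallest log2 ratio, 0.0077 (interval -0.04 to 0.06). Mir141, with the fewest counts, had -0.12 with an interval of -0.46 to 0.22, so its counts leave any difference within that range open. The median absolute log2 ratio was 0.09 over the 10 members and 0.19 over all 390 tested genes. Among genes summing to at least 1000 counts it was 0.09 for the 8 members and 0.11 for all. With edgeR's negative binomial exact test, which takes the spread between the pups as noise, 0 of the 10 members were called, against 0.513% of all tested genes. There, 0 members reached an unadjusted p under 0.05, and the smallest unadjusted p was 0.25. The dispersion of that test came from the same libraries. These tests compare libraries and have no replicate check.

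**Figure D3:**
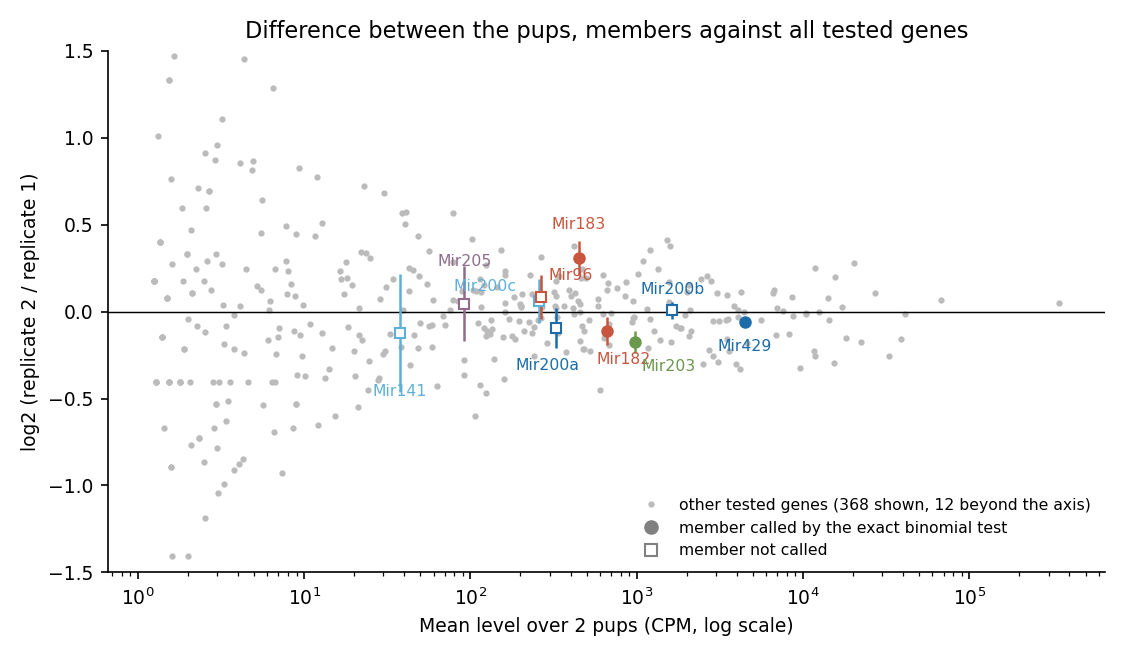
The log2 ratio of replicate 2 to replicate 1 against the mean level (CPM, log axis) for the 10 members in colour, with exact 95% intervals, and for the other tested genes in grey (368 shown, 12 beyond the axis). Members called by the exact binomial test are filled: Mir183 lies at 0.31, and Mir203, Mir182 and Mir429 lie between -0.17 and -0.06, all inside the scatter of genes of like level.

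The make-up of the clusters does not depend on library size, so it was compared between the pups directly. Mir183 rose against Mir182 in the same cluster. The ratio of Mir183 to Mir182 was 0.584 in replicate 1 and 0.781 in replicate 2, a log2 change of 0.42 (Fisher's exact test, p = 3.7e-11, adjusted p = 2.6e-10 over 265 pairs of same-strand hairpins within 10000 bases of each other). A change at least as large was seen in 17 of these 265 pairs, or 6.42%. Mir183 to Mir96 went from 1.55 to 1.81 and Mir182 to Mir96 from 2.65 to 2.32 (Fisher's exact test, adjusted p = 0.013 and 0.021). In the chromosome 4 cluster the ratio of Mir429 to Mir200b went from 2.81 to 2.69 (Fisher's exact test, adjusted p = 0.049).

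The ratios of Mir429 to Mir200a, of Mir200b to Mir200a and of Mir200c to Mir141 were not called, with adjusted p of 0.64, 0.16 and 0.41 by Fisher's exact test. In all, 4 of the 7 ratios within these clusters were called, beside 52.5% of the 265 pairs, again near the background. Ratios within the same cluster share hairpins, so these calls are not separate observations. The Mir183 cluster as a whole had 1345 CPM in replicate 1 and 1406 CPM in replicate 2, a log2 ratio of 0.06, while its members ranged from -0.11 to 0.31.

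Markers of other tissues and cell types were summed in each pup. All 6 pancreatic genes had counts, with a sum of 2024 CPM in replicate 1 and 2192 CPM in replicate 2. Nearly all of it came from the islet microRNA Mir375 at 2004 ± 112.8 CPM. The others were far lower, with means of 68.7 CPM for Mir7-1, 23.5 for Mir217 and 7.73 for Mir216b. Mir216a, at 2.09 CPM, and Mir7-2, at 2.01 CPM, were lowest. Mir31, listed for squamous and for columnar epithelium, had 815 and 917 CPM. Genes listed for gut and other columnar epithelium, Mir31 among them, summed to 976 and 1086 CPM. All 4 of them were detected, and Mir215 was lowest at 9.67 ± 1.21 CPM. Of 6 neural genes counted, 4 were at 0 in both pups, and the sum was 17.2 and 19.4 CPM, nearly all from Mir137. Mir124 and Mir9 have near-identical copies, and reads at several loci are on no gene, so zeros there say little. The low counts of Mir7-1, Mir7-2 and Mir194-1, which by their names also have copies, are open to the same limit.

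Between the pups, the hepatocyte and blood lists did not move as units, and several sums follow 1 gene. The pancreatic sum had a log2 ratio of 0.11, set by Mir375, while Mir216b had 0.49, Mir216a 0.47, Mir217 0.34, Mir7-1 -0.02 and Mir7-2 -0.04. Apart from Mir375, the intervals of these genes spanned no change. The columnar sum had 0.15, set by Mir31 at 0.17, while Mir196b had 0.15, Mir194-1 -0.13 and Mir215 -0.26. Apart from Mir31, the intervals of the columnar genes spanned no change as well. The hepatocyte sum had 0.05, set by Mir122, while Mir802 had 0.29, Mir192 -0.03, Mir148a -0.16 and Mir194-2 -0.22. The blood sum had -0.09, with Mir150 at 0.44 and Mir144 at 0.38 against Mir486 at -0.08, Mir223 at -0.13 and Mir451a at -0.23. The mesenchymal sum and endothelial Mir126a each had 0.07. The muscle sum had 2.88, all from Mir206. Other microRNAs known from muscle, outside the lists and picked after their values were seen, had ratios of both signs. Mir133b had 1 count in replicate 1 and 20 in replicate 2, a log2 ratio of 3.91 (interval 1.27 to 9.29). Mir208b had 0.72 (0.27 to 1.19) and Mir499 0.31 (-0.11 to 0.74). Mir1b had -0.41 (-1.69 to 0.88) and Mir208a -0.91 (-2.11 to 0.24). The intervals of Mir499, Mir1b and Mir208a spanned no change, and those of Mir133b and Mir208b lay above it. The muscle genes Mir1a-1, Mir133a-1 and Mir133a-2 were at 0 in both pups, but they too have near-identical copies, so these zeros say little. The part of these tissues in the levels of the 10 genes or in the differences between the pups was not tested.

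Of the 10 genes, Mir203 had by far the most reads on the opposite strand. On the strand opposite to Mir203 there were 244 reads in replicate 1 and 315 in replicate 2, or 71.3 and 69.4 per 1000000 microRNA counts. These were 6.45% (interval 5.69% to 7.28%) and 7.04% (6.31% to 7.83%) of the reads of both strands at the hairpin, a mean of 6.75% ± 0.419. The share did not differ between the pups beyond counting error (Fisher's exact test, p = 0.29). The opposite-strand level was within the range of the members themselves, above Mir141 and below Mir205.

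RefSeq places another hairpin there, mir-203b (Gm51289, chr12:112130887-112130946, minus strand), which has no row of its own among the gene symbols of the table. Its mature strands are shown, with the seeds in capitals, because they overlap those of Mir203 on the other strand and carry other seeds.
miR-203-5p: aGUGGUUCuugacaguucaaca
miR-203b-3p: uUGAACUGucaagaaccacugg
miR-203b-5p: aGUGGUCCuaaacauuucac
The counts per hairpin do not show which strand or arm the reads came from beyond their orientation, and whether they are mature miR-203b was not tested. Of 231 genes with at least 100 reads over both strands in each pup, 84.0% had 0 opposite-strand reads in both. Only 18 had more than 3 in both, and 13 of these, Mir203 included, face another RefSeq hairpin. How many of all 231 genes face such a hairpin was not counted, so the 13 have no background. Many of the 18 had nearly all their reads on the opposite strand, unlike Mir203. Mir142b, for example, had 45420 and 58328 reads there and 0 on its gene strand. Mir183 was the other member among the 18, with 9 and 5 such reads, and the remaining 8 members had 0 to 3 per library.

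**Figure D4:**
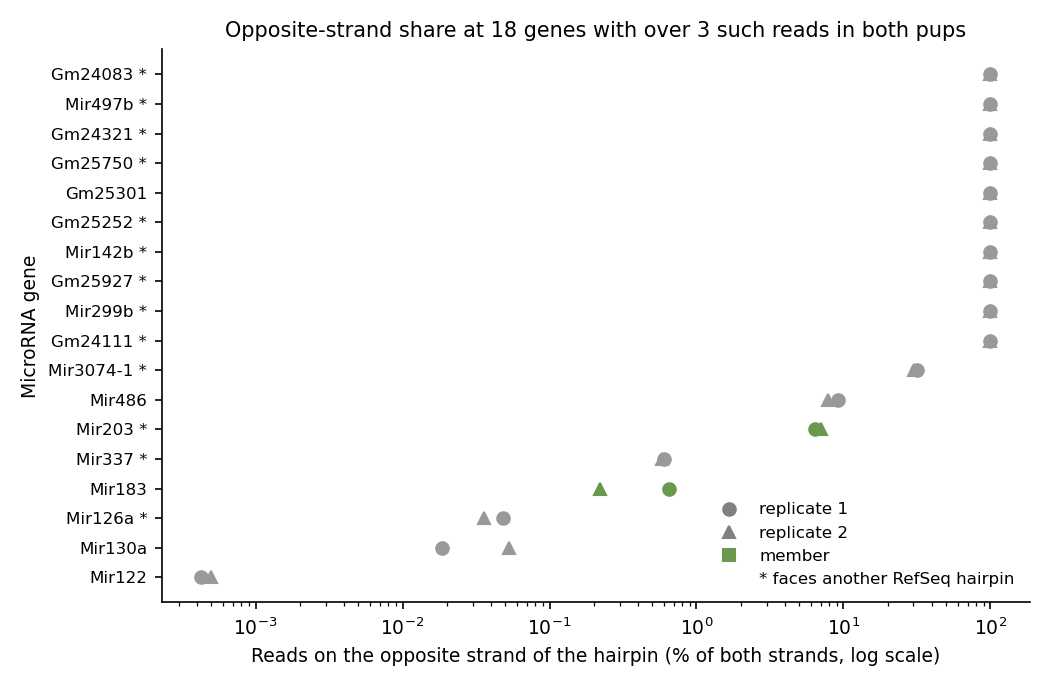
The share of reads on the opposite strand (% of both strands, log axis) at the 18 genes with more than 3 such reads in both pups, replicate 1 as circles and replicate 2 as triangles, members in green, an asterisk where RefSeq has another hairpin on the opposite strand. Mir203 lies at 6.45% and 7.04%, with 12 genes above it, and Mir183 lies under 1%. Of those 12, Mir3074-1 lies at 31.6% and 30.3% and Mir486 at 9.22% and 7.84%, and the others lie near 100%.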

How the data were processed

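MicroRNA sequencing of 2 newborn mouse livers was used, 1 library per pup, taken as replicates by the labels. As deposited, the tables hold raw read counts by microRNA gene on mm10 with GENCODE M4, per the text deposited with the tables. The sources used here do not name the aligner, counting program or trimming. Each table has 3 count columns without names, read from their sums as counts without regard to strand, on the gene strand (used here) and on the opposite strand. Uniquely mapped reads on no gene, 8.87% and 9.92%, stayed out of library sizes.

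Symbols and positions came from GENCODE M21 and matched 1894 of 1973 identifiers. CPM, exact binomial tests, Clopper-Pearson intervals and Fisher's exact tests used scipy 1.17.1. With 1 group, a quasi-likelihood test was not possible. The negative binomial exact test used edgeR 4.0.16 with a common dispersion from an intercept-only design, and other library sizes used its TMM factors and DESeq2 1.42.0. The named genes were the 10 members, the 2 genes closest in level to the highest of each locus, genes sharing a seed, and the marker lists. Ratios were planned to be adjusted over 7 pairs. The adjustment over all neighbouring pairs with at least 100 counts was added after the data were seen. The exact binomial and Fisher's exact tests were checked on simulated counts. These held counting error without further spread between pups, so the check does not extend to such spread. The members and lists were chosen with earlier results of these data known. Alternatives were other library sizes, filters, strand columns, hairpin length and each pup alone.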

Additional observations from a re-analysis of the deposited data

Results flagged for a closer look

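Reads on the strand opposite to a member's hairpin lie outside the main measurement, and 2 members had more of them than the 3 counts that a count of 0 allows. At Mir203 there were 244 in replicate 1 and 315 in replicate 2. At Mir183 there were 9 in replicate 1 and 5 in replicate 2, or 0.653% and 0.222% of the reads of both strands.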

How the results depend on the processing

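The number of members called between the pups was 4 under TMM factors, DESeq2 size factors, filters at 1 and at 100 counts and counts without regard to strand. It was 2 without Mir122 in the library size and 0 with edgeR's negative binomial exact test, where 2 genes were called in all, against 118 by the exact binomial test. The Mir200b log2 ratio turned to -0.00026 with DESeq2 size factors. Levels moved with the denominator while the order of the loci held. In the order Mir200b cluster, Mir183 cluster, Mir203, Mir200c cluster and Mir205, CPM were 5845, 1246, 884, 269 and 83.1 over all uniquely mapped reads, and 9902, 2112, 1496, 456 and 140.9 without Mir122. Without regard to strand the Mir200b, Mir183 and Mir200c clusters and Mir205 had 6155, 1315, 283 and 87.5 CPM, and the ratio of the Mir200b cluster to Mir203 was 6.18. Per base of hairpin, the Mir200b cluster was 18.9 times the Mir200c cluster and 60.1 times Mir205, the Mir183 cluster was 4.14 times the Mir200c cluster and 13.1 times Mir205, and the Mir200c cluster was 3.17 times Mir205. Within clusters 4 ratios were called by adjustment over 7 pairs or over 265. Each pup alone gave levels and ratios within 1 SD of the mean, which 2 values always do. No paired analysis was possible because there is 1 group. Depth limits Mir141 most.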
